A study of Homo sapiens with 30 samples.

Results

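The prostaglandin genes described here are 10 of the 60675 genes in the count table: the cyclooxygenases PTGS2 and PTGS1, the phospholipase PLA2G4A, the terminal synthases PTGES, PTGES2, PTGES3 and PTGIS, the catabolic enzyme HPGD, and the prostaglandin E2 receptor genes PTGER2 and PTGER4. They were taken by symbol. PTGS2 was chosen by its own CPM values, which were low at the low dose of the extracts and higher at the high dose, so its levels against vehicle and between doses are given as a description with no test. RNA was sequenced from SW1783 cells, an established human astrocytoma line, after 24 h with 1 of 5 herbal extracts or with vehicle, in 30 libraries. Hot water extracts of the multi-herb formulas Sibjeondaebo-tang and Palmul-tang were each given at 20, 100 and 500 µg/mL, with 3 libraries per dose. A hot water extract of the formula Samul-tang, a 70% ethanol extract of Poria Cocos and a 70% ethanol extract of Atractylodis Rhizoma were given at the same 3 doses, with 1 library per dose. The vehicle group had 3 libraries, labelled 0.1% DMSO, while the design text of the series names 2% DMSO; the concentration carried by the extract groups is not given in the sources used here. No label says that replicate libraries came from separate cultures, so p-values measure the spread between these libraries, which may be technical.

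Arachidonic acid is released from membrane phospholipids by cytosolic phospholipase A2, the product of PLA2G4A, and is oxidised by the cyclooxygenases PTGS1 and PTGS2 to prostaglandin H2. Terminal synthases turn that intermediate into prostaglandin E2 or prostacyclin, HPGD oxidises prostaglandin E2 to a less active product, and PTGER2 and PTGER4 encode receptors that raise cyclic AMP. PTGS2 is the inducible cyclooxygenase and a target of non-steroidal anti-inflammatory drugs, and in the brain it is known in glia as a gene induced by cytokines.

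Total counts per library ran between 22568739 and 37822331. The line carried 5 of 10 astrocyte markers at a median of at least 1 CPM (SLC1A3, GJA1, SOX9, VIM and NES), while GFAP, S100B, AQP4, SLC1A2 and ALDH1L1 were below it. CPM is the depth-scaled read count of edgeR after TMM scaling, which corrects library sizes for composition. The summed level of the 10 markers, mostly VIM, was 4747 to 5819 CPM in extract libraries and 5886 to 6042 CPM in vehicle libraries, with no overlap. VIM alone ran from 4388 to 5671 CPM over the 30 libraries, and GJA1 from 228 to 264 CPM, so the sum mainly follows VIM. The part of this sum in the differences from vehicle was not tested. Markers of immune cells summed to 11.45 to 16.03 CPM in extract libraries and 11.63 to 13.59 CPM in vehicle libraries, mostly PTPRC and CSF1R, and those of endothelial and epithelial cells reached at most 1.67 and 0.660 CPM in sum. Oligodendrocyte markers summed to 5.30 to 8.34 CPM in extract and 5.24 to 6.34 CPM in vehicle libraries, mostly MBP, and neuron markers to 73.1 to 112 CPM in extract and 106 to 111 CPM in vehicle libraries, mostly TUBB3. Replicate 3 of Sibjeondaebo-tang at 500 µg/mL stood apart from its group: the chi-square per gene was 7.70 and 6.98 against the other two, which differed by 2.56 from each other. The sample codes set the vehicle libraries apart from all extract libraries, so an effect of extract and of how that set was handled cannot be told apart in any comparison with vehicle. The codes also place Samul-tang, both larger formulas and both ethanol extracts in different sets. Between extracts of different sets, extract and handling cannot be told apart either.

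PTGS2 (ENSG00000073756) lies on the minus strand of chromosome 1, at chr1:186671791-186680427 in GRCh38, and PLA2G4A (ENSG00000116711) on the plus strand at chr1:186828953-186988981. The 2 genes are 148.5 kb apart, and no exon of any of the 10 genes overlaps another gene in GENCODE release 29. PTGS2 was picked for its dose pattern, and PLA2G4A was the only other of the 10 genes called between doses below. For that reason the 250 bases before the start of these 2 genes (RefSeq, GRCh38.p14, 5′ to 3′ on the gene's strand) are shown. They span chr1:186680424-186680673 for PTGS2 and chr1:186828699-186828948 for PLA2G4A. Capitals mark matches on either strand to 5 motifs known from the PTGS2 promoter, namely kappa B (GGGNNNNNCC), C/EBP (TTNNGNAA), the core of the cyclic AMP response element (TGACG), the E-box (CANNTG) and the TATA box (TATAAA).
PTGS2: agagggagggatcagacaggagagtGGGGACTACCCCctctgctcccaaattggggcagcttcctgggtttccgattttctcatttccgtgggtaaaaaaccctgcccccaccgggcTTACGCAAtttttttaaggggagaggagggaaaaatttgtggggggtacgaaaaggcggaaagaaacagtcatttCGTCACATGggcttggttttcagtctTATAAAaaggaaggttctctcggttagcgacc
PLA2G4A: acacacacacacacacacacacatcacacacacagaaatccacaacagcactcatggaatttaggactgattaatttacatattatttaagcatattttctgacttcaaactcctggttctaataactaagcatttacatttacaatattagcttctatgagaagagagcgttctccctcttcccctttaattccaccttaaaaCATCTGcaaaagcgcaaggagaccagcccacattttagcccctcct
The PTGS2 window held all 5 motifs. Its kappa B matches overlapped each other between bases -225 and -214 from the start, its C/EBP match lay at -133 to -126, its TATA box at -32 to -27, and its response element core at -58 to -54 shared bases with an E-box at -55 to -50. Among 35116 windows of the same length, 54.4% held a kappa B match, 33.2% a C/EBP match, 21.2% the response element core, 61.8% an E-box and 10.7% a TATA box, and 0.125% held all 5. Since the motifs were taken from knowledge of this promoter, their presence is no result. The PLA2G4A window held 1 E-box at -46 to -41 and no match to the other motifs. Of the 10 genes, 9 had an entry among these windows, and PTGIS had none.

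PTGS2 was lower than vehicle at 20 µg/mL in all 5 extracts and climbed with dose in 4 of them. In vehicle libraries PTGS2 stood at 94.3, 94.1 and 90.5 CPM. With Sibjeondaebo-tang the replicates gave 59.9, 68.3 and 57.5 CPM at 20 µg/mL, 81.6, 83.1 and 72.4 CPM at 100 µg/mL, and 126, 117 and 116 CPM at 500 µg/mL. With Palmul-tang they gave 62.0, 59.4 and 59.3 CPM at 20 µg/mL, 74.6, 78.0 and 73.2 CPM at 100 µg/mL, and 111, 109 and 109 CPM at 500 µg/mL. In both formulas every library at 20 and 100 µg/mL was below every vehicle library, and every library at 500 µg/mL was above. In bulk RNA, a change in the share of cells that express a gene and a change in RNA per cell cannot be told apart.

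As group means, PTGS2 was 61.9 ± 5.69, 79.1 ± 5.77 and 120 ± 5.28 CPM at 20, 100 and 500 µg/mL of Sibjeondaebo-tang, and 60.2 ± 1.56, 75.3 ± 2.50 and 109 ± 1.14 CPM at the same doses of Palmul-tang, beside 93.0 ± 2.11 CPM in vehicle (SD, n = 3 each). The level at 20 µg/mL was 0.666 times vehicle with Sibjeondaebo-tang and 0.648 times vehicle with Palmul-tang. The level at 500 µg/mL was 1.29 times and 1.18 times vehicle in the same formulas, and 1.93 times and 1.82 times the level at 20 µg/mL. Without the Sibjeondaebo-tang library that stood apart, the mean of the remaining pair at 500 µg/mL was 121 CPM.

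**Figure D1:**
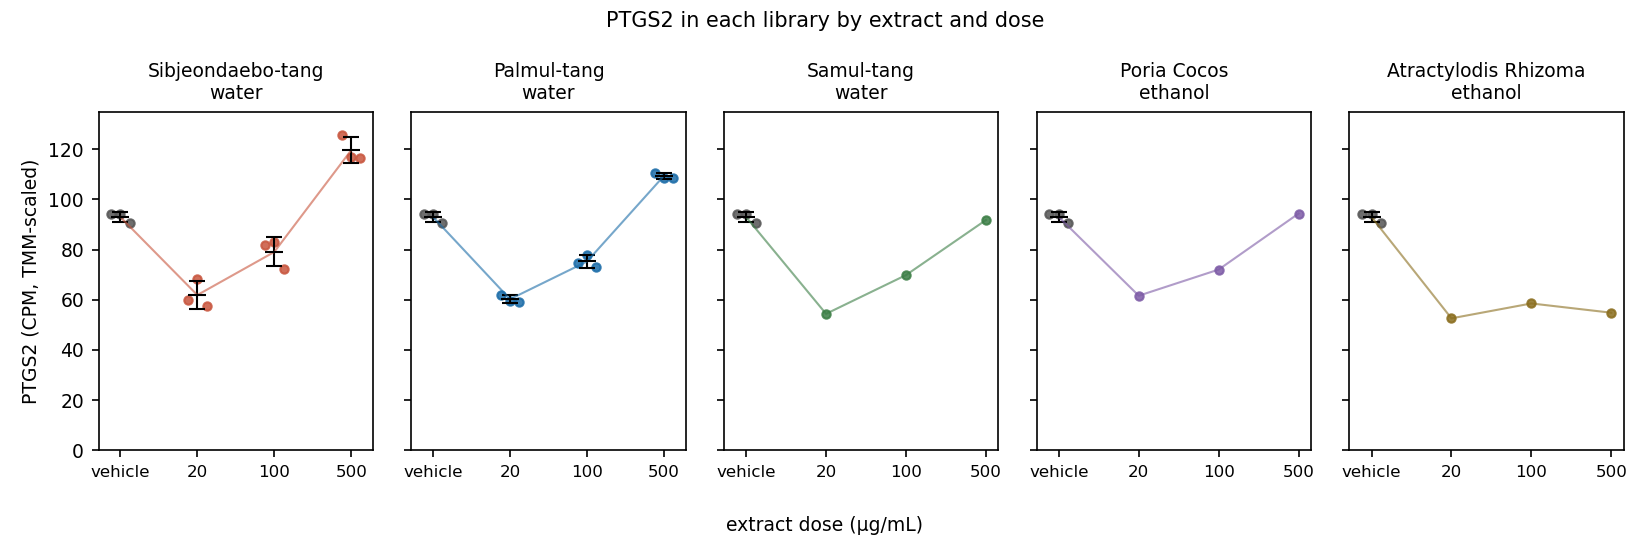
PTGS2 level (CPM after TMM scaling, linear axis) by dose in 5 panels, 1 per extract, with the same 3 vehicle libraries in each; points are libraries, black bars the mean and SD of 3 libraries, and lines join group means. The low dose sits between 52.6 and 68.3 CPM in every extract, below the vehicle libraries at 90.5 to 94.3 CPM, and the level climbs with dose in each panel except that of Atractylodis Rhizoma.

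The 3 extracts with 1 library per dose have no replicate check, and the intervals given are exact 95% Poisson intervals that cover counting error only. Samul-tang gave 54.4 CPM at 20 µg/mL (51.6 to 57.3), 69.8 CPM at 100 µg/mL (66.6 to 73.2) and 91.7 CPM at 500 µg/mL (88.0 to 95.6). Poria Cocos gave 61.6 CPM (58.8 to 64.5), 72.0 CPM (68.7 to 75.5) and 94.4 CPM (91.0 to 97.8) at the same doses. Both ended within or beside the vehicle range at 500 µg/mL, at 0.987 and 1.02 times the vehicle mean, and at 1.69 and 1.53 times their own low dose. Atractylodis Rhizoma gave 52.6 CPM (49.8 to 55.5), 58.5 CPM (55.9 to 61.2) and 54.8 CPM (52.1 to 57.7). With that extract the level at 500 µg/mL was 0.590 times vehicle and 1.04 times its low dose.

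Ordered by mean level over the 16 groups, PTGS2 was highest with Sibjeondaebo-tang at 500 µg/mL, then with Palmul-tang at 500 µg/mL, and neither overlapped the next group down. Poria Cocos at 500 µg/mL, vehicle and Samul-tang at 500 µg/mL followed at 94.4, 93.0 and 91.7 CPM, and these neighbours overlapped. A gap separated them from the groups at 100 µg/mL, which began with Sibjeondaebo-tang at 79.1 CPM. Below that gap each group overlapped the next in the order, down to Atractylodis Rhizoma at 20 µg/mL, the lowest at 52.6 CPM. The 9 libraries at 20 µg/mL spanned 52.6 to 68.3 CPM, all below the vehicle range of 90.5 to 94.3 CPM.

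The level of PTGS2 in Sibjeondaebo-tang against Palmul-tang at the same dose was not used to pick it, so it was tested. At 500 µg/mL all 3 Sibjeondaebo-tang libraries (116 to 126 CPM) were above all 3 Palmul-tang libraries (109 to 111 CPM). The difference was 0.13 ± 0.048 on the log2 scale (SE), or 1.09-fold with a 95% interval of 1.02 to 1.17, with an unadjusted p of 0.0114 and an adjusted p of 0.980 (edgeR's quasi-likelihood test, Benjamini-Hochberg over 17839 genes). It did not pass the threshold of 0.05, and its adjusted p lay between 0.335 and 1.0 over 11 alternatives. At 100 µg/mL the difference was 0.07 with an adjusted p of 1.0, and at 20 µg/mL it was 0.04 with an adjusted p of 0.999, from the same test. The dose change between 20 and 500 µg/mL was 0.09 ± 0.072 larger with Sibjeondaebo-tang on the log2 scale (95% interval -0.054 to 0.24, adjusted p of 1.0 from the same test). In none of these 4 comparisons did edgeR call any of the 9 prostaglandin genes that passed the filter on low counts, and it called 0 of 17839 genes (0.0%). At an unadjusted p under 0.05 there were 863 genes at 500 µg/mL, 478 at 100 µg/mL, 629 at 20 µg/mL and 716 for the difference of dose changes. With no difference between formulas, a share of about 0.05 of the 17839 genes would fall there, and none of the 4 counts exceeds it in this fit. At 500 µg/mL the count did exceed that share with the replicate block (1013) and without replicate 1, 2 or 3 of Sibjeondaebo-tang (1305, 1076 and 1080). It also did at 20 µg/mL without replicate 2 of Sibjeondaebo-tang (969). For the difference of dose changes it did without replicate 3 of Sibjeondaebo-tang at 500 µg/mL (1090). The other alternatives stayed below the share. The Wald test of DESeq2 called 2, 0, 0 and 0 genes in the same order.

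Genes with the dose pattern of PTGS2 were counted by calls. Only 615 genes with Sibjeondaebo-tang and 505 with Palmul-tang were called higher at 500 µg/mL than at 20 µg/mL at all. At 20 µg/mL 13.3% of all genes were called lower than vehicle in each formula. Of 17839 genes tested, 98 (0.549%) were called lower at 20 µg/mL than vehicle and higher at 500 µg/mL than at 20 µg/mL in both formulas. MGLL and ZFP36L1 of the lists below are among them. Of these 98, 25 (0.14% of the genes tested) were also called higher at 500 µg/mL than vehicle in both formulas. They include LIF, RGMB, CCL2, CCL5, F3, HAS2, IER3, IRF1, RELB and TNIP1, named after their values were seen. PTGS2 was picked for this pattern, so its place in both sets is no result.

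Likeness to PTGS2 was measured as Pearson's r between mean log2 CPM values over the 16 groups, for the 12649 genes whose mean log2 CPM reached 1; it is a description, since both values of a pair come from the same libraries. The 5 genes most like it were LIF (0.97), RGMB (0.956), FOSL1 (0.953), MGLL (0.947) and XPO6 (0.944). LIF encodes a cytokine of the interleukin 6 family, RGMB a co-receptor of bone morphogenetic proteins, FOSL1 a subunit of the transcription factor AP-1, MGLL a lipase that releases arachidonic acid from 2-arachidonoylglycerol in the brain, and XPO6 a nuclear exporter of actin. LIF stood at 36.3, 33.0 and 33.2 CPM at 20 µg/mL of Sibjeondaebo-tang and 94.4, 87.0 and 98.5 CPM at 500 µg/mL, beside 61.0, 57.1 and 52.6 CPM in vehicle. LIF libraries at these 2 doses lay on opposite sides of vehicle, as those of PTGS2 did. The 3 genes with the most opposite pattern were KLHL4 (-0.952), PDE5A (-0.946) and JRK (-0.937). Among the prostaglandin genes r with PTGS2 was 0.503 for PTGER4, 0.340 for PLA2G4A, 0.0900 for PTGES2, -0.253 for PTGER2 and -0.312 for PTGES3.

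**Figure D2:**
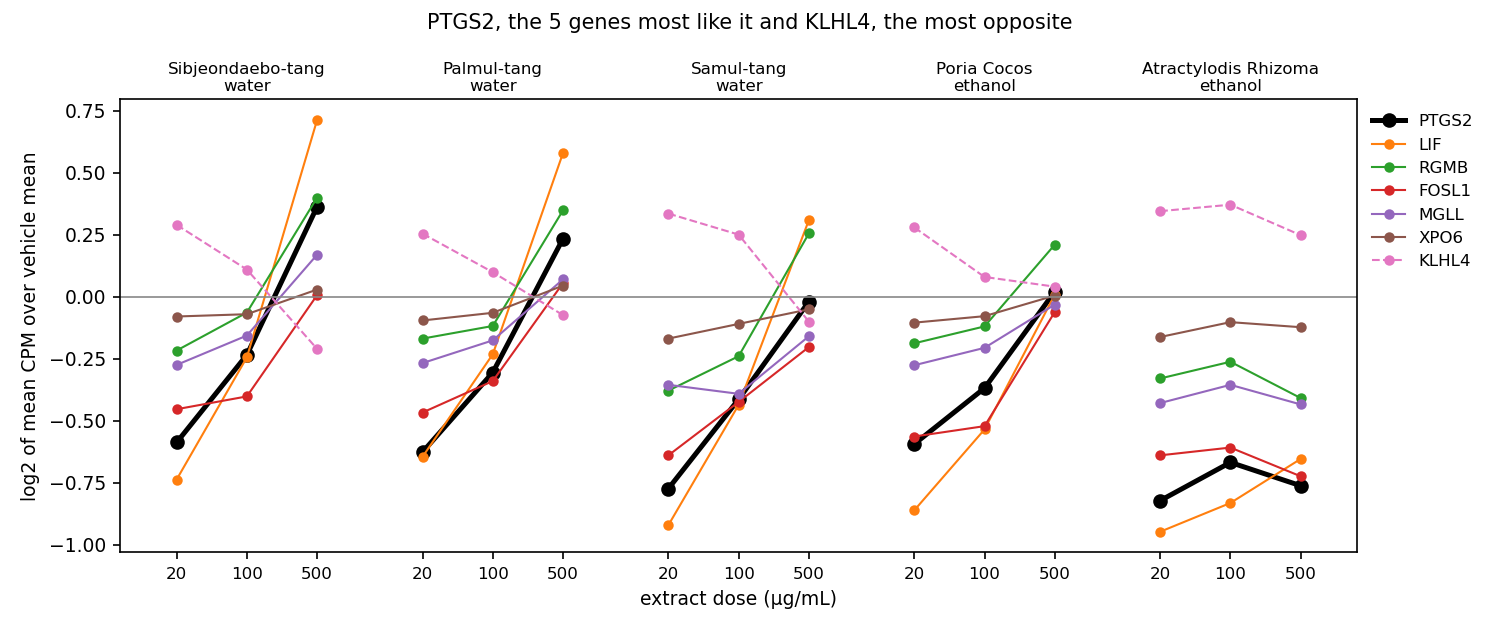
Log2 of the group mean CPM over the vehicle mean (vertical axis) by dose within each of the 5 extracts, for PTGS2 (thick black line), the 5 genes most like it over 16 groups and KLHL4, the gene most opposite (dashed). With both large formulas the curve of LIF crosses the vehicle line between 100 and 500 µg/mL with that of PTGS2, and with Atractylodis Rhizoma all 6 stay below the vehicle line at every dose while KLHL4 stays above it.

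The cytokine genes CXCL8, IL6 and IL1B had r values of 0.838, 0.748 and 0.826 with PTGS2. At 20 µg/mL CXCL8 was 11.5 ± 1.22 CPM with Sibjeondaebo-tang and 11.98 ± 0.977 CPM with Palmul-tang, beside 10.9 ± 1.56 CPM in vehicle (SD, n = 3 each), and at 500 µg/mL it was 120 ± 12.2 and 106 ± 4.18 CPM in the same formulas.

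Per kilobase of exon, PTGS2 had a median of 14.0 CPM over the 30 libraries. PTGES3 had 90.4, PTGES2 16.7, PTGER2 10.3, PLA2G4A 7.13, PTGER4 5.07, PTGES 0.363, HPGD 0.159, PTGS1 0.0583 and PTGIS 0.00704 CPM per kilobase. Per length, PTGS2 was thus the main cyclooxygenase RNA in these cells, and the synthase RNAs PTGES3 and PTGES2 stood above that of the inducible PTGES. Of the 10 genes, 9 passed the filter on low counts, and PTGIS did not.

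**Figure D3:**
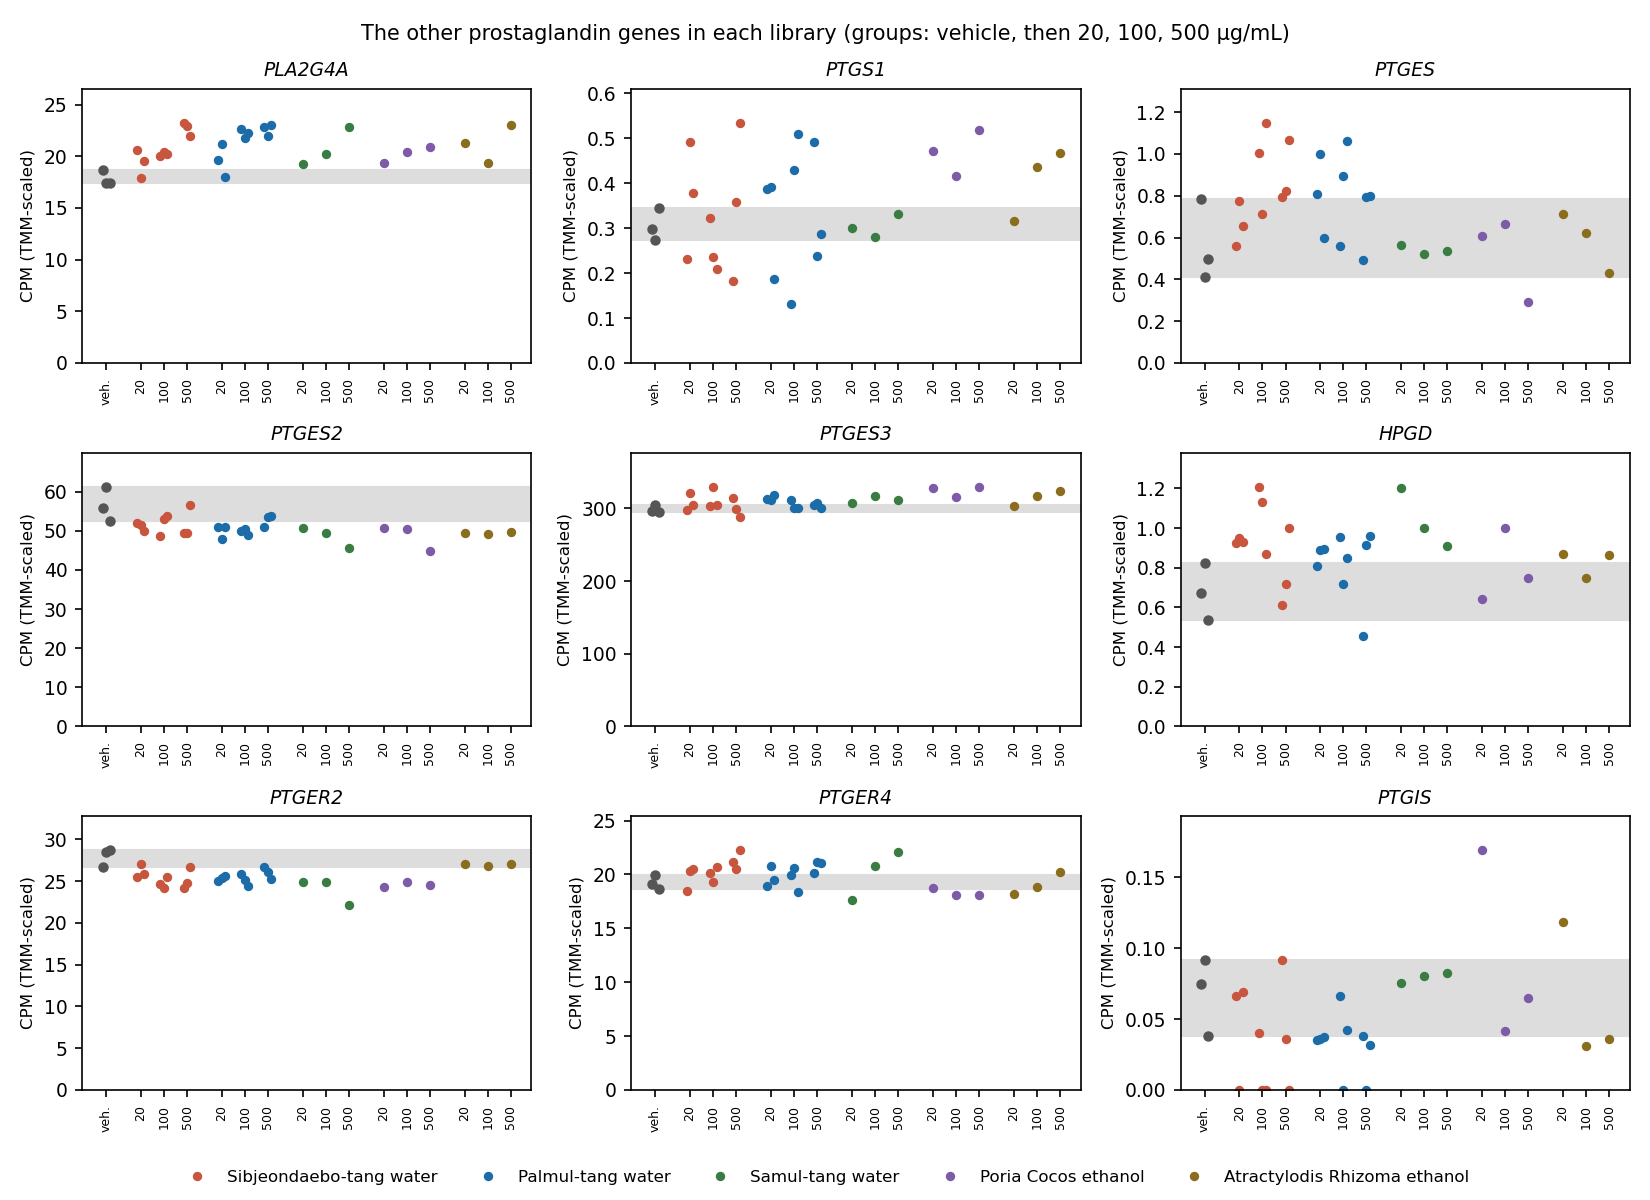
Level (CPM after TMM scaling, linear axis from 0) of the other 9 prostaglandin genes in each of the 30 libraries; points are libraries, colours are extracts, and the grey band is the range of the 3 vehicle libraries. PLA2G4A lies above the band in most extract libraries and is highest at 500 µg/mL, PTGES2 and PTGER2 lie mostly below it, and PTGS1, PTGES, HPGD and PTGIS scatter at low counts.

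PLA2G4A, which supplies the substrate, was the only one of the 8 other genes tested that was called between doses. With Sibjeondaebo-tang PLA2G4A stood at 23.2, 22.9 and 22.0 CPM at 500 µg/mL, against 20.6, 17.9 and 19.5 CPM at 20 µg/mL. With Palmul-tang it stood at 22.9, 22.0 and 23.0 CPM at 500 µg/mL, against 19.6, 21.2 and 17.96 CPM at 20 µg/mL. The doses did not overlap in either formula. PLA2G4A rose by 0.23 ± 0.059 on the log2 scale with Sibjeondaebo-tang (adjusted p of 0.0116) and by 0.21 ± 0.060 with Palmul-tang (adjusted p of 0.0302), both adjusted by Benjamini-Hochberg after edgeR's quasi-likelihood test. That is 1 of 8 genes in each formula, where 6.24% of all genes tested were called in Sibjeondaebo-tang (3.45% higher and 2.79% lower) and 5.3% in Palmul-tang (2.83% higher and 2.47% lower). The fold was 1.17 and 1.16 from the group means in the same formulas.

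Both calls of PLA2G4A between doses were lost when single libraries were left out, which also leaves fewer libraries to test, while the log2 change stayed between 0.18 and 0.27 with Sibjeondaebo-tang and between 0.15 and 0.27 with Palmul-tang over the 11 alternatives. With Sibjeondaebo-tang its adjusted p was 0.0553 without replicate 1 at 500 µg/mL, 0.112 without replicate 2 at 20 µg/mL and 0.0768 when only the compared groups were fitted, in a range of 0.00778 to 0.112 over 11 alternatives. It was 0.00938 without the library that stood apart. With Palmul-tang the adjusted p was 0.0950 and 0.115 without replicate 1 or 3 at 500 µg/mL, 0.0821 and 0.249 without replicate 1 or 3 at 20 µg/mL, and 0.0610 by the Wald test of DESeq2, in a range of 0.0111 to 0.249.

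Marker sums differed between the same doses. Neuron markers, mostly TUBB3, summed to 75.1 to 90.1 CPM at 500 µg/mL of Sibjeondaebo-tang, against 94.95 to 97.1 CPM at 20 µg/mL, and to 73.1 to 78.7 CPM at 500 µg/mL of Palmul-tang, against 93.1 to 98.2 CPM at 20 µg/mL. Oligodendrocyte markers, mostly MBP, summed to 7.31 to 8.34 CPM against 5.30 to 5.70 CPM with Sibjeondaebo-tang and 6.66 to 8.10 CPM against 5.37 to 6.10 CPM with Palmul-tang at the same doses. Astrocyte markers, mostly VIM, summed to 5400 to 5819 CPM against 5248 to 5331 CPM with Sibjeondaebo-tang and 5298 to 5613 CPM against 5275 to 5293 CPM with Palmul-tang. None of these 6 ranges at 500 µg/mL overlapped that at 20 µg/mL, and the part of these sums in the dose differences of PTGS2, PLA2G4A and the listed genes below was not tested.

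Against vehicle, PLA2G4A was higher at 500 µg/mL in both formulas. Its 3 vehicle libraries stood at 18.7, 17.4 and 17.4 CPM, below all libraries at 500 µg/mL. PLA2G4A rose by 0.35 ± 0.061 on the log2 scale with Sibjeondaebo-tang (adjusted p of 5.04e-05) and by 0.34 ± 0.061 with Palmul-tang (adjusted p of 5.62e-05) in edgeR's quasi-likelihood test, and these calls held under all 11 alternatives. PLA2G4A was 1 of 2 of the 8 genes called with Sibjeondaebo-tang, beside PTGER2, and the only one with Palmul-tang, where 25.1% of all genes tested were called with Sibjeondaebo-tang (11.7% higher and 13.3% lower) and 27.8% with Palmul-tang (12.9% higher and 14.9% lower). PLA2G4A at 20 µg/mL differed from vehicle by 0.12 (adjusted p of 0.187) with Sibjeondaebo-tang and 0.13 (adjusted p of 0.127) with Palmul-tang in the same test; only without replicate 3 of Palmul-tang at 20 µg/mL did it pass, at 0.0407. In the extracts with 1 library per dose, PLA2G4A stood at 22.8 CPM with Samul-tang, 20.9 CPM with Poria Cocos and 23.0 CPM with Atractylodis Rhizoma at 500 µg/mL, against 19.3, 19.3 and 21.3 CPM at 20 µg/mL of the same extracts. The level of PLA2G4A at 500 µg/mL of Atractylodis Rhizoma was 1.29 times vehicle, where PTGS2 was at 0.590 times vehicle.

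**Figure D4:**
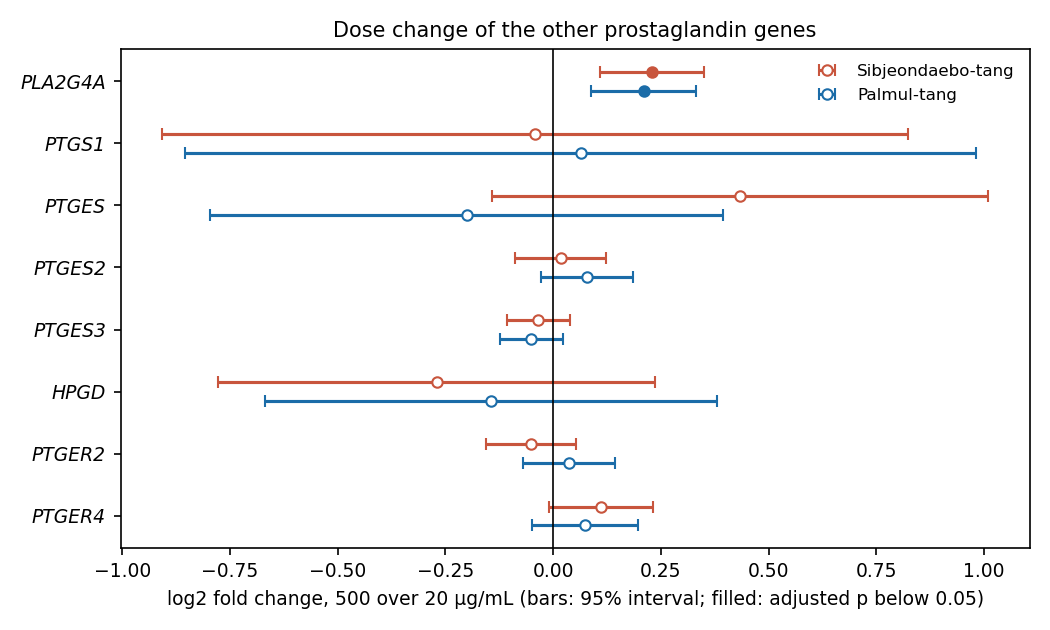
Log2 fold change of 500 over 20 µg/mL for the 8 prostaglandin genes tested other than PTGS2, in Sibjeondaebo-tang and Palmul-tang; points are estimates from edgeR, bars their 95% intervals, and filled points have an adjusted p below 0.05. PLA2G4A is the one gene filled, at 0.23 and 0.21, and the intervals of PTGS1, PTGES and HPGD are several times wider than those of the other genes.

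PTGS1, the constitutive cyclooxygenase, was at 0.132 to 0.534 CPM over the 30 libraries, or 4 to 16 counts per library. With Sibjeondaebo-tang PTGS1 differed between 500 and 20 µg/mL by -0.04 on the log2 scale (95% interval -0.91 to 0.82), and with Palmul-tang by 0.06 (95% interval -0.85 to 0.98). Differences inside those intervals were not detectable at this depth.

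Among the terminal synthases, PTGES encodes the inducible microsomal prostaglandin E synthase that is usually coupled to PTGS2. PTGES was at 0.292 to 1.15 CPM, with 9 to 33 counts per library. Its log2 difference between 500 and 20 µg/mL was 0.43 with Sibjeondaebo-tang (95% interval -0.14 to 1.01) and -0.20 with Palmul-tang (95% interval -0.80 to 0.39), so neither the size nor the sign of a dose change could be set. PTGES3, the cytosolic synthase that is also the p23 co-chaperone of HSP90, kept a narrow range of 289 to 330 CPM. Its dose difference was -0.03 (95% interval -0.11 to 0.039) with Sibjeondaebo-tang and -0.05 (95% interval -0.12 to 0.023) with Palmul-tang. PTGIS, the prostacyclin synthase, had 41 counts in all 30 libraries together, with 6 libraries at 0 and at most 5 counts in any, and was not tested.

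PTGES2, the membrane-associated synthase, was lower than vehicle at 20 µg/mL. It stood at 52.1, 51.6 and 49.96 CPM with Sibjeondaebo-tang and 51.0, 47.8 and 50.9 CPM with Palmul-tang at that dose, against 55.9, 61.2 and 52.6 CPM in vehicle. All 6 extract libraries were below all 3 vehicle libraries. PTGES2 fell by 0.14 ± 0.052 on the log2 scale with Sibjeondaebo-tang (adjusted p of 0.0482) and by 0.18 ± 0.053 with Palmul-tang (adjusted p of 0.0127) in edgeR's quasi-likelihood test, adjusted by Benjamini-Hochberg. In Sibjeondaebo-tang it was 1 of 8 genes called, and in Palmul-tang 1 of 2 beside PTGER2, where 23.8% of all genes tested were called in each formula (10.5% higher and 13.3% lower in both). The Sibjeondaebo-tang call was lost without any 1 of 5 libraries, with adjusted p-values of 0.0815 and 0.320 without vehicle replicate 1 or 2 and 0.0700, 0.0830 and 0.150 without replicate 1, 2 or 3 at 20 µg/mL. It was also lost by the Wald test of DESeq2 (0.0510) and with no filter on low counts (0.0525). Over all its alternatives the adjusted p lay between 0.0161 and 0.320. The Palmul-tang call was lost without vehicle replicate 2 (0.128) or replicate 2 at 20 µg/mL (0.0753), in a range of 0.00430 to 0.128. At 500 µg/mL PTGES2 differed from vehicle by -0.12 with Sibjeondaebo-tang (adjusted p of 0.0834 in the same test, and 0.00413 without replicate 3 at 500 µg/mL, the library that stood apart, and 0.0244 without vehicle replicate 3) and by -0.10 with Palmul-tang (adjusted p of 0.176).

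HPGD, the dehydrogenase that starts the breakdown of prostaglandin E2, was at 0.454 to 1.21 CPM with 12 to 43 counts per library. Its dose difference was -0.27 on the log2 scale with Sibjeondaebo-tang (95% interval -0.78 to 0.24) and -0.14 with Palmul-tang (95% interval -0.67 to 0.38), and it was called in none of the 10 comparisons.

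Of the receptors, PTGER2 (EP2) was lower than vehicle in some groups and PTGER4 (EP4) was not called in any. PTGER2 stood at 24.2, 24.7 and 26.8 CPM at 500 µg/mL of Sibjeondaebo-tang and at 25.0, 25.4 and 25.6 CPM at 20 µg/mL of Palmul-tang, against 26.8, 28.5 and 28.7 CPM in vehicle. Libraries of both extract groups were all below the 3 vehicle libraries, though the highest of Sibjeondaebo-tang came level with the lowest of vehicle within rounding. PTGER2 fell by 0.15 ± 0.052 on the log2 scale at 500 µg/mL of Sibjeondaebo-tang (adjusted p of 0.0316) and by 0.14 ± 0.052 at 20 µg/mL of Palmul-tang (adjusted p of 0.0440) in edgeR's quasi-likelihood test. The Sibjeondaebo-tang call was lost without vehicle replicate 2 (0.0918) or 3 (0.123) and without replicate 1 (0.148) or 2 (0.0975) at 500 µg/mL. It was also lost by the Wald test of DESeq2 (0.0605), with no filter on low counts (0.128) and with only the compared groups fitted (0.1015). Its adjusted p was 0.00708 without the library that stood apart, in a range of 0.00708 to 0.148. The Palmul-tang call was lost without vehicle replicate 2 (0.115) or 3 (0.164) and without replicate 1, 2 or 3 at 20 µg/mL (0.109, 0.0884 and 0.0756). It was also lost by the Wald test of DESeq2 (0.0852) and with no filter on low counts (0.149), in a range of 0.0312 to 0.164. PTGER4 stood at 21.2, 20.5 and 22.2 CPM at 500 µg/mL of Sibjeondaebo-tang, against 18.4, 20.3 and 20.5 CPM at 20 µg/mL and 19.2, 20.0 and 18.6 CPM in vehicle. PTGER4 libraries at 500 µg/mL were above all those of the other two groups, and its log2 difference was 0.11 from 20 µg/mL (adjusted p of 0.343) and 0.15 from vehicle (adjusted p of 0.0695) in the same test.

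A wider list of 33 other genes of eicosanoid synthesis, breakdown, transport and signalling was compared the same way, and 20 of them passed the filter on low counts. Between 500 and 20 µg/mL 3 of the 20 rose, 0 fell and 17 were not called in each formula, beside 3.45% of all genes called higher in Sibjeondaebo-tang and 2.83% in Palmul-tang. The median log2 fold change of the 20 was 0.020 with Sibjeondaebo-tang and -0.0097 with Palmul-tang, beside 0.00084 and -0.00069 over all genes tested. The genes that rose were AKR1B1, MGLL and PLA2G4C in both formulas.

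AKR1B1, an aldose reductase that also makes prostaglandin F2α from prostaglandin H2, stood at 322, 320 and 352 CPM at 500 µg/mL of Sibjeondaebo-tang, against 221, 227 and 214 CPM at 20 µg/mL. With Palmul-tang AKR1B1 stood at 287, 297 and 309 CPM at 500 µg/mL, against 221, 221 and 229 CPM at 20 µg/mL. AKR1B1 rose by 0.59 ± 0.038 (adjusted p of 7.91e-14) and 0.41 ± 0.039 (adjusted p of 7.58e-10) on the log2 scale in the same formulas, by edgeR's quasi-likelihood test. The doses did not overlap in either formula. AKR1B1 at 500 µg/mL was 0.15 ± 0.038 higher with Sibjeondaebo-tang than with Palmul-tang on the log2 scale, which edgeR did not call (adjusted p of 0.393, and 0.0439 with no filter on low counts).

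MGLL, which hydrolyses 2-arachidonoylglycerol to arachidonic acid, followed PTGS2 in direction. It stood at 14.5 ± 0.799, 15.7 ± 0.388 and 19.7 ± 0.683 CPM at 20, 100 and 500 µg/mL of Sibjeondaebo-tang and 14.6 ± 1.46, 15.5 ± 0.792 and 18.4 ± 1.40 CPM at the same doses of Palmul-tang, beside 17.5 ± 1.12 CPM in vehicle (SD, n = 3 each). MGLL rose between 20 and 500 µg/mL by 0.44 ± 0.070 with Sibjeondaebo-tang (adjusted p of 2.69e-05) and 0.34 ± 0.072 with Palmul-tang (adjusted p of 0.00196) in edgeR's quasi-likelihood test. At 20 µg/mL MGLL fell by 0.28 against vehicle with Sibjeondaebo-tang (adjusted p of 0.00441) and by 0.27 with Palmul-tang (adjusted p of 0.00625) in that test, calls that were lost without vehicle replicate 1 at 0.0510 and 0.0628.

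PLA2G4C, a calcium-independent relative of PLA2G4A, stayed at or below 1.07 CPM. Its log2 change between 20 and 500 µg/mL was 0.93 ± 0.28 with Sibjeondaebo-tang (adjusted p of 0.0410) and 1.07 ± 0.30 with Palmul-tang (adjusted p of 0.0253) in edgeR's quasi-likelihood test. With Sibjeondaebo-tang the call was lost with no filter on low counts (0.0771), with only the compared groups fitted (0.0760), and without any 1 of 5 libraries, with adjusted p-values of 0.0596 and 0.178 without replicate 1 or 3 at 500 µg/mL and 0.0621, 0.180 and 0.0988 without replicate 1, 2 or 3 at 20 µg/mL. With Palmul-tang it was lost without replicate 1 (0.1096) or 2 (0.134) at 500 µg/mL and without replicate 1 (0.0870) or 3 (0.119) at 20 µg/mL. Exons of PLA2G4C overlap those of the antisense gene PLA2G4C-AS1 by 326 bases, and the strand setting of the counting is not given in the sources used here.

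Against vehicle, 4 of the 20 rose and 1 fell at 500 µg/mL of Sibjeondaebo-tang, where 25.1% of all genes tested were called, and 3 rose and 2 fell at that dose of Palmul-tang, where 27.8% were called. At 20 µg/mL 2 rose and 3 fell in each formula, where 23.8% were called. These shares of the list are near those of all genes. AKR1B1 and PLA2G4C were among the genes called at 500 µg/mL and MGLL among those at 20 µg/mL, in both formulas. PTGFR, the receptor for prostaglandin F2α, rose in all 4 comparisons. PTGFR stood at 21.9 ± 1.96 CPM at 500 µg/mL and 23.4 ± 0.944 CPM at 20 µg/mL of Sibjeondaebo-tang, and 22.4 ± 0.512 and 22.7 ± 1.26 CPM at the same doses of Palmul-tang, against 16.6 ± 0.103 CPM in vehicle (SD, n = 3 each). Its log2 change from vehicle was 0.41 and 0.50 with Sibjeondaebo-tang and 0.44 and 0.46 with Palmul-tang at 500 and 20 µg/mL, with adjusted p-values up to 9.82e-06 in edgeR's quasi-likelihood test. Between doses PTGFR differed by -0.09 with Sibjeondaebo-tang (adjusted p of 0.479) and -0.02 with Palmul-tang (adjusted p of 0.923) in that test. Its high level was thus shared by all extract groups and showed no called dose change.

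A second list held 18 genes for factors known to act on PTGS2 transcription or on the decay of its mRNA, and all 18 passed the filter. Between 500 and 20 µg/mL 3 rose, 0 fell and 15 were not called in each formula, beside 3.45% of all genes called higher in Sibjeondaebo-tang and 2.83% in Palmul-tang. The median log2 fold change of the 18 was 0.045 with Sibjeondaebo-tang and 0.0092 with Palmul-tang, beside 0.00084 and -0.00069 over all genes tested. The genes that rose were JUN, a subunit of AP-1, NFKB1, the precursor of the NF-κB subunit p50, and ZFP36L1, which binds AU-rich elements in mRNA and promotes decay.

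JUN averaged 142 ± 8.06 CPM at 500 µg/mL of Sibjeondaebo-tang, against 119 ± 3.13 CPM at 20 µg/mL, and 140 ± 6.41 CPM at 500 µg/mL of Palmul-tang, against 120 ± 5.23 CPM at 20 µg/mL (SD, n = 3 each). NFKB1 averaged 25.8 ± 1.47 against 21.2 ± 1.12 CPM and 26.1 ± 1.89 against 21.9 ± 1.21 CPM in the same comparisons. On the log2 scale JUN rose by 0.25 (adjusted p of 3.22e-05) and 0.23 (0.000156), and NFKB1 by 0.29 (0.00107) and 0.26 (0.00505), in edgeR's quasi-likelihood test. The Palmul-tang call of NFKB1 was lost without replicate 1 at 500 µg/mL, at 0.0521.

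ZFP36L1 had the pattern of PTGS2 below vehicle. It averaged 262 ± 11.3, 273 ± 12.2 and 314 ± 6.02 CPM at 20, 100 and 500 µg/mL of Sibjeondaebo-tang and 263 ± 7.10, 277 ± 15.1 and 321 ± 7.14 CPM at the same doses of Palmul-tang, beside 328 ± 10.6 CPM in vehicle (SD, n = 3 each). ZFP36L1 rose between doses by 0.26 (adjusted p of 1.03e-05) and 0.29 (2.36e-06), and fell against vehicle at 20 µg/mL by 0.32 in each formula (adjusted p of 1.83e-07 and 2.74e-07), by edgeR's quasi-likelihood test. It differed from vehicle at 500 µg/mL by -0.06 and -0.03 (adjusted p of 0.268 and 0.605). Its r with PTGS2 over the 16 groups was 0.922, rank 12 of 12649 genes.

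**Figure D5:**
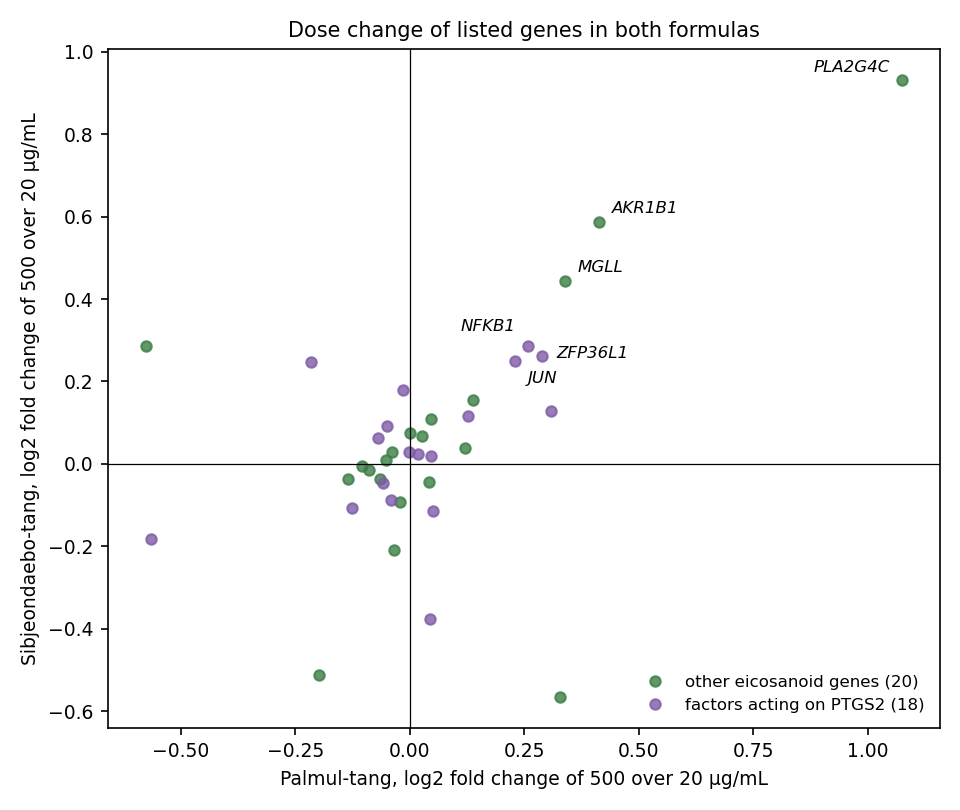
Log2 fold change of 500 over 20 µg/mL in Palmul-tang (horizontal) and Sibjeondaebo-tang (vertical) for 20 other eicosanoid genes and 18 genes for factors acting on PTGS2; each point is a gene, and named genes were called in both formulas. The 6 named genes lie in the upper right, led by PLA2G4C at 1.07 and 0.93 and AKR1B1 at 0.41 and 0.59, and most others lie near 0.

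In the vehicle comparisons of the second list, 2 of 18 rose and 4 fell at 500 µg/mL of Sibjeondaebo-tang, beside 25.1% of all genes called (11.7% higher and 13.3% lower). At that dose of Palmul-tang 3 rose and 6 fell, beside 27.8% (12.9% higher and 14.9% lower). At 20 µg/mL 2 rose and 4 fell with Sibjeondaebo-tang, and 2 rose and 6 fell with Palmul-tang, beside 23.8% of all genes in each (10.5% higher and 13.3% lower). JUN and NFKB1 were called against vehicle at 500 µg/mL only: JUN rose by 0.21 and 0.20 and NFKB1 by 0.30 and 0.32 on the log2 scale in Sibjeondaebo-tang and Palmul-tang, with adjusted p-values up to 0.000273 in edgeR's quasi-likelihood test. At 20 µg/mL their differences from vehicle lay between -0.04 and 0.06. RELA, ELAVL1 and KHSRP, named after their values were seen, were called lower in all 4 vehicle comparisons. At 500 µg/mL of Sibjeondaebo-tang RELA stood at 80.7, 84.0 and 91.6 CPM, against 97.0, 97.2 and 96.7 CPM in vehicle. In the same groups ELAVL1 stood at 99.3, 101 and 103 against 120.5, 118 and 122 CPM. KHSRP stood at 195, 186 and 198 against 232, 219 and 229 CPM there.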

How the data were processed

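Per the labels' protocols, libraries were made from RNA of integrity number over 7 with a directional kit and read as 100 bp pairs. Per the submitters' processing notes, FastQC 0.11.9, Trim Galore 0.6.5, STAR 2.7.3a and RSEM 1.3.3 were used with GRCh38. The authors deposited expected counts for each gene. A further 249 columns of per-sample values, which belong to no sample here, were not used. Expected counts were rounded, scaled by TMM and filtered with filterByExpr, which left 17839 genes. The quasi-likelihood test of edgeR 4.0.16 (R 4.3.3) was fitted over all 30 libraries with 1 mean per group. Groups of 1 library entered that fit but were compared by values only. Benjamini-Hochberg adjusted p-values under 0.05 were calls. The script was tested on simulated data. Positions and exon lengths are from GENCODE release 29, promoter windows from RefSeq. Alternatives were the Wald test of DESeq2 1.42.0, its size factors, no filter, only the compared groups, a replicate block and each library left out. The prostaglandin genes and both lists were chosen with earlier results of these data known. Named genes are the 10 prostaglandin genes, list genes called between 500 and 20 µg/mL, the 5 genes most like and 3 most unlike PTGS2, and CXCL8, IL6 and IL1B; PTGFR and genes marked in the text were named after their values were seen.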

Additional observations from a re-analysis of the deposited data

Results flagged for a closer look

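Each of the 4 results below has all libraries of some extract groups above all vehicle libraries and those of another extract at the same dose below them. The differences between extracts were not tested, since at least 1 side has a single library. Except for Poria Cocos beside Atractylodis Rhizoma, the extracts set against each other here also carry different sets of sample codes. At 500 µg/mL PTGS2 was at 54.8 CPM with Atractylodis Rhizoma, below vehicle (90.5 to 94.3 CPM), while Sibjeondaebo-tang and Palmul-tang were above it. Poria Cocos was above it only by its point value of 94.4 CPM, whose 95% Poisson interval of 91.0 to 97.8 CPM overlapped vehicle. PTGES was at 0.292 CPM with Poria Cocos at 500 µg/mL, from 9 counts, below vehicle (0.411 to 0.783 CPM), while Sibjeondaebo-tang was above it. Its 95% Poisson interval of 0.134 to 0.554 CPM overlapped vehicle. PTGER4 was at 18.1 CPM with Poria Cocos at 100 µg/mL (18.134 CPM), below vehicle (18.6 to 20.0 CPM), while Samul-tang was above it. At 500 µg/mL PTGER4 was again at 18.1 CPM with Poria Cocos (18.073 CPM), while Sibjeondaebo-tang, Palmul-tang, Samul-tang and Atractylodis Rhizoma were above vehicle. Both PTGER4 values of Poria Cocos had 95% Poisson intervals that overlapped vehicle, 16.5 to 19.9 CPM at 100 µg/mL and 16.6 to 19.6 CPM at 500 µg/mL. So did those of Samul-tang at 100 µg/mL (19.1 to 22.7 CPM) and Atractylodis Rhizoma at 500 µg/mL (18.6 to 22.0 CPM).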

How the results depend on the processing

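No called value changed sign under any alternative, while 288 alternative values of uncalled genes did, in 138 of 474 gene and comparison pairs; the dose change of HPGD with Palmul-tang, for example, ran between -0.34 and 0.12. Between 500 and 20 µg/mL, the number of prostaglandin genes called was 0 with Palmul-tang by the Wald test of DESeq2 and 0 with Sibjeondaebo-tang when only the compared groups were fitted, a fit that called 636 genes in all. Against vehicle at 500 µg/mL of Sibjeondaebo-tang it was 1 by the Wald test, with no filter and with only the compared groups; at 20 µg/mL it was 1 with Palmul-tang and 0 with Sibjeondaebo-tang by the Wald test and with no filter. Between Sibjeondaebo-tang and Palmul-tang, the Wald test called 2 genes at 500 µg/mL, and with no filter 9, 7 and 3 genes were called at 500, 100 and 20 µg/mL and 12 for the difference of dose changes, where 34672 genes were tested. The cause of these shifts was not tested. Leaving out 1 library at a time gave 766 to 1163 genes and 0 to 1 prostaglandin genes for Sibjeondaebo-tang between doses, and 643 to 712 and 0 to 1 for Palmul-tang. Against vehicle it gave 3483 to 5168 genes and 1 to 3 prostaglandin genes at 500 µg/mL of Sibjeondaebo-tang, 3954 to 4233 and 1 to 1 with Palmul-tang, 3333 to 3769 and 0 to 1 at 20 µg/mL of Sibjeondaebo-tang, and 3287 to 3632 and 0 to 2 with Palmul-tang. Between the formulas it gave 0 to 1 genes at 500, 0 to 2 at 100 and 0 to 0 at 20 µg/mL, 0 to 1 for the difference of dose changes, and 0 to 0 prostaglandin genes in each. With the total count and no scaling factor, the log2 ratio of PTGS2 to vehicle moved to 0.29 at 500 µg/mL and -0.57 at 20 µg/mL of Palmul-tang. Replicate numbers were not taken as pairs, since same-numbered libraries correlated at -0.206 to 0.328 and 22 of 63 pairs were over 0.1. In 17 of 21 libraries the mean correlation was higher with their own number than with other numbers. The middle part of the sample codes also follows the replicate number, and what it marks is not stated in the sources used here. Shared handling by replicate number therefore remains possible, and the main fit does not model it. With the replicate block 1258 genes were called between doses of Sibjeondaebo-tang and 1036 of Palmul-tang. Of the alternative values for single genes, 5330 were labelled unchanged, 98 lost a call, 51 gained one and 2 moved. The 5330 are not a count of calls that held: they include uncalled genes that stayed uncalled and ratios of PTGS2, which had no test. The 2 that moved are the PTGS2 ratios of Palmul-tang given above. Counts of 4 to 43 per library limit PTGS1, PTGES and HPGD, and vehicle comparisons cannot separate extract from the handling of that set. The same limit holds between extracts whose sample codes lie in different sets.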
